A study of Mus musculus with 20 samples.

Results

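The genes described here encode the inflammasome and the interleukin 1 (IL-1) family: the sensors Nlrp3, Nlrc4 and Aim2, the adaptor Pycard, the caspases Casp1 and Casp4, the pore-forming protein Gsdmd, the cytokines Il1b and Il18, and the receptor antagonist Il1rn. They were chosen by name from this pathway, and Ensembl identifiers in the expression table were matched to mouse symbols. Of the 10 genes listed, 9 were found among the 14776 genes of the table. Il1b was not analysed here.

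An inflammasome is a protein complex of the cytosol that forms when a sensor meets microbial products, cytosolic DNA or signs of cell damage. NLRP3 responds to many kinds of cell stress, NLRC4 to bacterial proteins bound by NAIP partners, and AIM2 to double-stranded DNA. The adaptor ASC, encoded by Pycard, links sensors to caspase-1, which matures IL-1β and IL-18 and cuts gasdermin D to open pores in the plasma membrane. Caspase-11, encoded by Casp4 in the mouse, cuts gasdermin D in response to cytosolic lipopolysaccharide. IL-1 receptor antagonist, encoded by Il1rn, binds the IL-1 receptor without activating it. In obese adipose tissue macrophages are a known source of this RNA, and whole tissue does not tell which cells it came from.

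RNA was measured in whole epididymal fat (epididymal white adipose tissue, eWAT) from 20 mice, male C57BL/6J animals that each gave a separate sample. The normal control group (NC, 6 mice) ate maintenance feed from 6 weeks of age, and no gavage is stated for it. The high-fat diet group (HFD, 7 mice) ate a feed with 60 kcal% fat (D12492) from 6 weeks of age for 14 weeks, and then received saline by gavage for 6 weeks on the same feed. The SZ-A group (7 mice) was fed in the same way and received Ramulus Mori (Sangzhi) alkaloids, an extract of mulberry twig, by gavage at 400 mg/kg/d in those 6 weeks. All mice were wild type, and the tissue was whole fat pad, so adipocytes, immune cells and stromal cells were measured together. Levels are FPKM as deposited by the authors, fragments scaled to exon length and to a library size of each mouse. The size implied by the values was below the reads recovered on the deposited genes in some mice and above them in others. In HFD replicate 1 it was 15406890 against 17216011 reads, so it was not a plain read total in every mouse. No gene of the table was at 0 in any mouse. Reads on these genes numbered 13567667 to 19388628 per mouse.

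The 9 genes lie on 7 chromosomes of the GRCm38 assembly and are all protein-coding in GENCODE M21. Casp1 (chromosome 9, 5298517 to 5307265) and Casp4 (chromosome 9, 5308828 to 5336783) are neighbours on the plus strand, and Il18 lies on the same chromosome (50554827 to 50581840). Nlrp3 was annotated at chromosome 11, 59541568 to 59566956, Il1rn at chromosome 2, 24336853 to 24351494, Aim2 at chromosome 1, 173350879 to 173466040, and Gsdmd at chromosome 15, 75862327 to 75867408, all on the plus strand. Pycard (chromosome 7, 127989708 to 127993867) and Nlrc4 (chromosome 17, 74425438 to 74459142) lie on the minus strand. Exons of Pycard share 485 bases with Gm45205, a gene model on the opposite strand that is not in the table, and the counting was not stated to use strand. None of the other 8 genes shared exon bases with another gene.

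The 250 bases before the RefSeq starts of Casp1, Nlrp3 and Il1rn are shown here (GRCm38.p6, plus strand, 5′ to 3′), since Casp1 and Il1rn were separated from NC in both diet-fed groups and Nlrp3 was separated between SZ-A and HFD. Capitals mark GAGGAA, a core of sites bound by the myeloid factor PU.1, or its reverse complement TTCCTC. For Il1rn the windows of 2 of its starts are given, and another start lies 80 bases further on. The table holds a single level per gene, so it does not tell which start was used.
Casp1, chr9:5298267-5298516: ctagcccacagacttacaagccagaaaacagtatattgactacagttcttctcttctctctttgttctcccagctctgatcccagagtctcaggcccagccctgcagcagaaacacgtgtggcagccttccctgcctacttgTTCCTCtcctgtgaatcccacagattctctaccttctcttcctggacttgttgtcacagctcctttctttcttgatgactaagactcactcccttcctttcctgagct
Nlrp3, chr11:59541319-59541568: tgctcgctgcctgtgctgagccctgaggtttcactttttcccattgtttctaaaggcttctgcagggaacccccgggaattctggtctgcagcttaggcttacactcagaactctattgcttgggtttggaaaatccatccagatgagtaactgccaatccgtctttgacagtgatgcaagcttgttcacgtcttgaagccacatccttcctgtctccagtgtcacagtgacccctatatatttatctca
Nlrp3, chr11:59542436-59542685: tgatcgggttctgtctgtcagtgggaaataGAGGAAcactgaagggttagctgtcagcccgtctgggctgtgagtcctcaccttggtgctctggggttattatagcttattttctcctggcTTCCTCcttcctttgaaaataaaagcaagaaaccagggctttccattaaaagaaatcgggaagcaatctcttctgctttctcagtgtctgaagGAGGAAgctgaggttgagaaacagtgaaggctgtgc
Il1rn, chr2:24336610-24336859: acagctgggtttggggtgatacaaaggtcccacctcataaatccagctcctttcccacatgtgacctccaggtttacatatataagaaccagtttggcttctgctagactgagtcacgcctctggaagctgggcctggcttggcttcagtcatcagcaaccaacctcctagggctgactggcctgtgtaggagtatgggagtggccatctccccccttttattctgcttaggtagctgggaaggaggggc
Il1rn, chr2:24345041-24345290: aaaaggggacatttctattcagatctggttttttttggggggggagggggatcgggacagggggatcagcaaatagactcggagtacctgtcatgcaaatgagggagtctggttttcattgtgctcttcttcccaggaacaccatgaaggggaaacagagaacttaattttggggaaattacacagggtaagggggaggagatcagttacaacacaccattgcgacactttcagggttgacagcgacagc

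Promoters were listed for 8 of the 9 members, with 12 starts in all. GAGGAA on either strand was in 4 of the 12 windows (Aim2, Pycard, Casp1 and 1 of the Nlrp3 windows), against 23.3% of 32851 promoter windows of the same length. The window of Casp1 held 1 match and the downstream window of Nlrp3 held 3. TGANTCA, the AP-1 motif, was in 1 window, that of the upstream start of Il1rn, against 6.75% of all promoters. TTNNGNAA, a C/EBP motif, was in 9 of the 12 windows against 36.9%. The NF-kB consensus was in 3 windows, the pair of Casp4 windows and the upstream window of Nlrp3, against 3.90%. Windows of a gene overlap for Casp4 and for Il1rn, so they are not separate. A match describes letters and is not a binding site.

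A few libraries stood apart from their groups. NC replicate 6 had a median correlation of 0.765 with the other NC mice, against 0.881 or more for each other mouse of the NC group. Its 12 adipocyte markers summed to 506 FPKM, against 9476 to 22820 in the other NC mice. Its epithelial markers (4 of 13 in the table) summed to 866 FPKM, but NC replicates 1 and 2 were also at 740 and 525. Adgrg2, a gene of epididymal epithelium and the only 1 of 18 epididymis markers in the table, was at 420 FPKM, against 5.69 to 30.0 in the other NC mice. In SZ-A, the epithelial sum was 243 FPKM in replicate 2 and 322.5 in replicate 7, against 4.72 to 64.8 in the others. Adgrg2 was at 103 FPKM in SZ-A replicate 2, against 1.80 to 10.3 in the other SZ-A mice. In HFD mice Adgrg2 was at 0.789 to 1.75 FPKM, below every NC and every SZ-A mouse. It was called lower in HFD than in NC (log2 fold change -3.50, limma adjusted p = 0.0020). It was called higher in SZ-A than in HFD (1.92, limma adjusted p = 0.032). The epithelial sum was 5.23 to 15.1 FPKM in HFD and 17.6 to 866 in NC, so these differences were not limited to NC replicate 6. In SZ-A replicate 5, mitochondrial genes took 11.6% of the reads, against 1.67% to 5.11% in the other SZ-A mice. All 12 adipocyte markers were in the table, and their sum was 506 to 22820 FPKM in NC, 1465 to 6477 in HFD and 4504 to 14830 with SZ-A. Of the 12, Lep was called higher and Cfd and Retn lower in HFD than in NC, and Cfd and Retn were called higher in SZ-A than in HFD. The results below are given with and without NC replicate 6 and SZ-A replicate 5 where they matter.

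Markers of macrophages, of fibroblasts and of mast cells differed between HFD and NC and between SZ-A and HFD, and epithelial markers differed between HFD and NC. All 20 genes of the macrophage list were in the table, and their sum was 76.1 to 790 FPKM in NC, 4037 to 11570 in HFD and 1640 to 6264 with SZ-A. Adgre1, which encodes the macrophage antigen F4/80, averaged 5.94 ± 4.13 (SD, n = 6), 204 ± 41.9 (n = 7) and 59.6 ± 30.6 FPKM (n = 7). Of the 20 markers, 17 were higher in HFD than in NC, 15 lower in SZ-A than in HFD and 13 higher in SZ-A than in NC at an adjusted p under 0.05. Fibroblast and preadipocyte markers (7 of 7 in the table) summed to 50.8 to 559 FPKM in NC, 873 to 1353 in HFD and 227 to 545 with SZ-A, so that HFD overlapped neither group. Of these 7, 5 were higher and Dpp4 was lower in HFD than in NC, 6 fell in SZ-A against HFD, and Col1a1 was higher in SZ-A than in NC. Mast cell markers (5 of 6 in the table) summed to 4.27 to 27.6 FPKM in NC, 50.5 to 708 in HFD and 13.3 to 65.9 with SZ-A. Neutrophil markers were in the table for 3 of 10 genes, without S100a9 and Ly6g, and summed to 0.617 to 14.1, 7.32 to 18.7 and 6.53 to 24.0 FPKM. In whole tissue, more cells of a type and more RNA per cell cannot be told apart. The part of these cells in the results below was not tested.

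HFD against NC compares high-fat feed and saline gavage with maintenance feed. No gavage is stated for NC, so diet and gavage cannot be told apart here. Every one of the 9 genes had a higher mean in HFD, and 8 of them rose at an adjusted p under 0.05 (limma on log2(FPKM + 1), Benjamini-Hochberg over 14706 genes). This call was made in the upward direction for 21.0% of all genes tested. The fold limit taken from the study's methods, a log2 fold change above 1.5 as well, was passed by 5 members (Casp1, Gsdmd, Il1rn, Nlrc4 and Aim2) and by 5.43% of all genes. In 6 members every HFD mouse was above every NC mouse, which held for 12.7% of all genes. The median log2 fold change of the 9 was 1.52, against -0.04 over all genes tested. All fold changes here are on the log2(FPKM + 1) scale, which understates changes of low genes. With a pseudocount of 0.1, or by voom on recovered reads, Nlrp3 and Casp4 passed the fold limit as well, and more of all genes passed it too.

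Il1rn, the receptor antagonist, had the largest difference of the 9. It was at 0.0372 to 0.292 FPKM in NC (median 0.0949), 9.68 to 49.0 in HFD (median 21.3) and 2.33 to 31.5 with SZ-A (median 5.69). All HFD and SZ-A mice were above all NC mice, while HFD and SZ-A overlapped. The NC values rest on 3 to 26 reads per mouse, against 956 to 4733 in HFD. The mean of HFD was 204 times that of NC, and the log2 fold change was 4.47 ± 0.32 (SE, limma adjusted p = 2.4e-07, exact two-sided permutation p = 0.00058, the smallest that 1716 regroupings can give).

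Casp1, the caspase that matures IL-1β and IL-18, was the next. Its level was 0.413 to 6.78 FPKM in NC (median 4.19), 20.1 to 55.3 in HFD (median 29.6) and 9.47 to 22.6 with SZ-A (median 11.7). No HFD or SZ-A mouse was as low as any NC mouse. The rise in HFD was 2.93 ± 0.37 on the log2 scale (SE, limma adjusted p = 3.5e-05), with a ratio of group means of 8.49.

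The 3 sensors rose together, and in each of them the HFD and NC mice did not overlap. Nlrc4 was at 0.232 to 0.619 FPKM in NC (median 0.469), 2.27 to 4.06 in HFD (median 3.05) and 0.612 to 2.70 with SZ-A (median 1.03). Its log2 fold change in HFD against NC was 1.52 ± 0.12 (SE, limma adjusted p = 4.2e-07). Aim2, the DNA sensor, was at 0.216 to 1.88 FPKM in NC (median 0.489), 2.66 to 5.95 in HFD (median 4.91) and 1.18 to 5.84 with SZ-A (median 1.55), and rose by 1.71 ± 0.22 in HFD (SE, limma adjusted p = 4.5e-05). Nlrp3 was the lowest of the sensors in HFD. It was at 0.0944 to 0.414 FPKM in NC (median 0.204), 0.681 to 1.28 in HFD (median 1.02) and 0.177 to 0.566 with SZ-A (median 0.335). Its rise was 0.70 ± 0.10 on this scale (SE, limma adjusted p = 7.7e-05), where the ratio of group means was 4.46 (7 to 27 reads per NC mouse and 49 to 94 per HFD mouse). With a pseudocount of 0.1 in place of 1, or with voom on reads recovered from the FPKM, its log2 fold change reached up to 2.18.

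Gsdmd, Casp4 and Pycard rose less than Casp1 in log2 fold change. Gsdmd was at 0.866 to 11.2 FPKM in NC (median 6.42), 12.9 to 20.7 in HFD (median 14.5) and 6.37 to 39.6 with SZ-A (median 9.60), and its log2 fold change in HFD was 1.54 ± 0.36 (SE, limma adjusted p = 0.0039). HFD and NC did not overlap for Gsdmd. Casp4 was at 0.296 to 2.99 FPKM in NC (median 1.57), 2.98 to 7.40 in HFD (median 4.57) and 1.59 to 9.17 with SZ-A (median 2.99), with a rise of 1.21 ± 0.25 in HFD (SE, limma adjusted p = 0.0021). The lowest HFD mouse was just under the highest NC mouse. Pycard was at 0.754 to 6.48 FPKM in NC (median 1.80), 3.97 to 11.0 in HFD (median 5.24) and 1.81 to 8.74 with SZ-A (median 3.23), and rose by 1.12 ± 0.32 (SE, limma adjusted p = 0.014). The 2 highest NC values of Pycard, 6.48 and 4.50 FPKM, were in NC replicates 6 and 1, which also had the 2 highest sums of epithelial markers (866 and 740 FPKM, against 17.6 to 525 in the other NC mice). In HFD mice that sum was 5.23 to 15.1 FPKM. The same NC mice had the lowest NC values of Casp1 (0.413 and 1.86 FPKM) and of Gsdmd (0.866 and 2.16). With each group's mean subtracted, Pycard had a Pearson r of 0.28 with the epithelial marker Krt18 and 0.40 with Spint2. For each other member both were below 0, and with Spint2 they ran from -0.19 for Il1rn to -0.74 for Gsdmd. The part of epithelial cells in the values of any member was not tested.

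Il18 was the only member whose difference between HFD and NC did not pass the test. It was at 0.599 to 4.94 FPKM in NC (median 2.30), 2.88 to 7.24 in HFD (median 3.93) and 0.992 to 6.82 with SZ-A (median 3.08). The 3 groups overlapped. The log2 difference between HFD and NC was 0.66 ± 0.27 (SE, limma adjusted p = 0.067, and 0.020 without NC replicate 5). Without NC replicate 6, the other 8 members still passed, and 3 members passed the fold limit in place of 5: Gsdmd was then at 1.22 and Nlrc4 at 1.48.

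**Figure D1:**
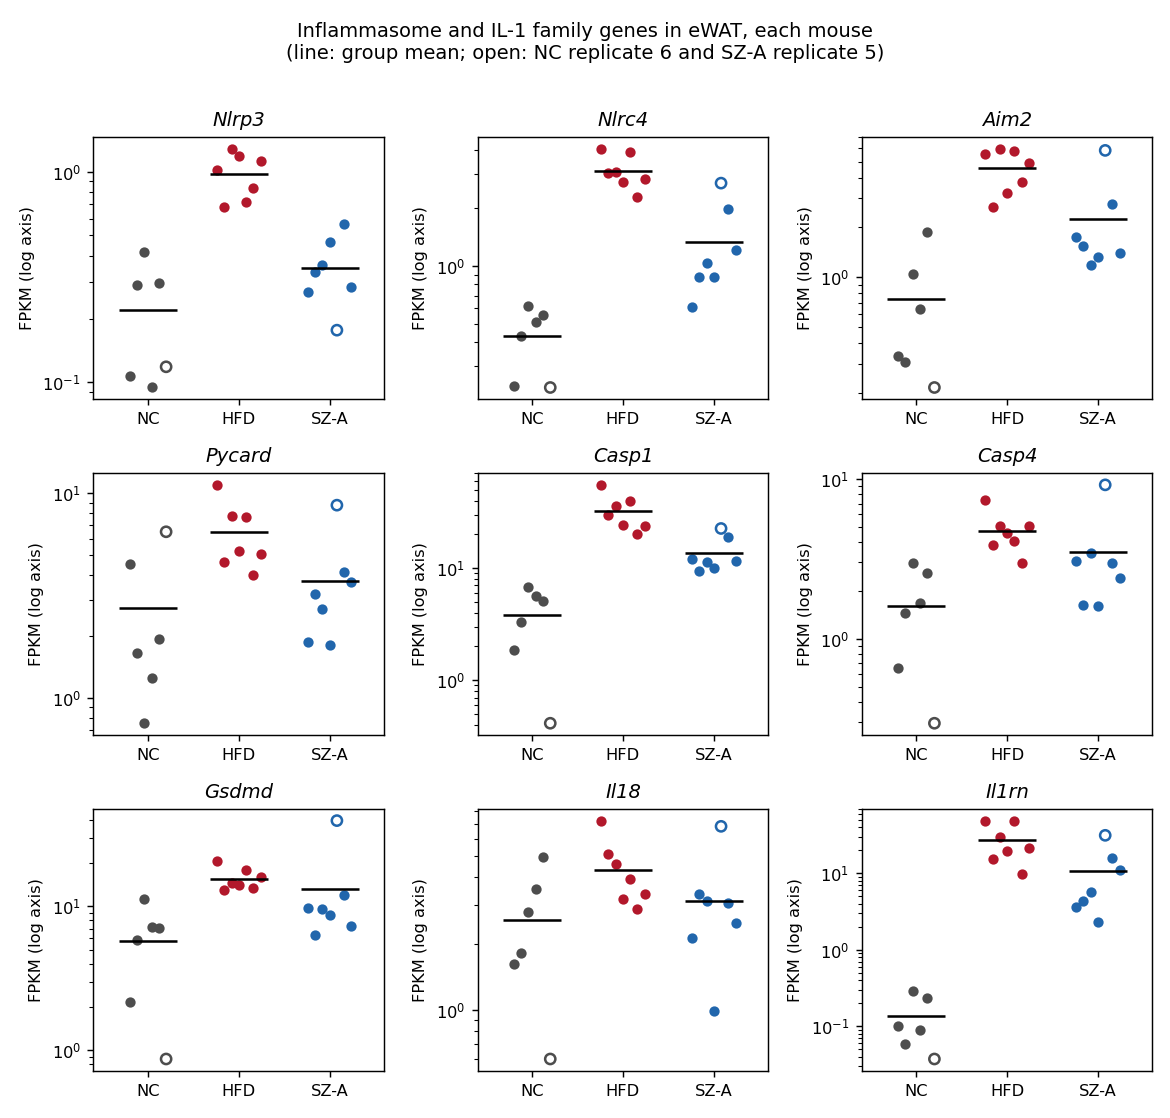
FPKM of the 9 genes in each of 20 mice on log axes, with a line at each group mean and open circles for NC replicate 6 and SZ-A replicate 5. The 7 HFD mice sit above all 6 NC mice for Nlrp3, Nlrc4, Aim2, Casp1, Gsdmd and Il1rn, and the SZ-A mice lie below all HFD mice for Nlrp3 only, SZ-A replicate 5 is the highest SZ-A mouse for 8 genes and the lowest for Nlrp3.

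SZ-A against HFD asks what the alkaloids did under a continued high-fat diet. The HFD mice enter this comparison as well as the one above, so the differences share them. All 9 genes had a lower mean in SZ-A, and 5 fell at an adjusted p under 0.05 (limma, 14695 genes tested), a call made downward for 13.3% of all genes. The fold limit was passed by Il1rn alone, and by 0.558% of all genes. Nlrp3 was the only member with all SZ-A mice below all HFD mice, which held for 4.01% of all genes. The median log2 fold change of the 9 was -0.71 (0.03 over all genes tested).

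The sensors and Casp1 fell, as did Il1rn. Nlrp3 fell by 0.55 on the log2 scale (SE 0.09, limma adjusted p = 0.0011), with a mean 2.80 times higher in HFD than in SZ-A, and its SZ-A values rest on 10 to 42 reads per mouse. Casp1 fell by 1.18 (SE 0.23, limma adjusted p = 0.0030) and Nlrc4 by 0.87 (SE 0.17, limma adjusted p = 0.0031). Aim2 fell by 0.85 (SE 0.24, limma adjusted p = 0.021). For Nlrp3, Casp1, Nlrc4 and Aim2 the call held in each of 14 fits that left out 1 mouse. Il1rn fell by 1.53 (SE 0.48, limma adjusted p = 0.033), from a mean of 27.7 ± 15.8 FPKM in HFD to 10.6 ± 10.3 in SZ-A (SD, n = 7 each). This call was lost in 7 of the 14 fits, those without HFD replicate 1, 3 or 5 or without SZ-A replicate 1, 2, 3 or 4, with adjusted p up to 0.074.

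Pycard, Casp4, Gsdmd and Il18 did not pass the test with all mice. Their log2 differences were -0.71 ± 0.26 (SE, limma adjusted p = 0.062), -0.48 ± 0.26 (0.19), -0.46 ± 0.29 (0.27) and -0.43 ± 0.24 (0.22). These calls turned on SZ-A replicate 5, other than that of Pycard, which also passed without HFD replicate 6 (0.047) and by voom with all mice (0.047). SZ-A replicate 5 had the highest SZ-A value of 8 members and the lowest of Nlrp3, with 39.6 FPKM of Gsdmd against 6.37 to 12.0 in the other SZ-A mice, and 9.17 FPKM of Casp4 against 1.59 to 3.46. Without it, all 9 members fell, with limma adjusted p of 0.0063 for Pycard, 0.0096 for Casp4, 0.0019 for Gsdmd and 0.041 for Il18. The share of all genes called lower in that fit is not given here, since the 13.3% above is from all mice. Whether the added calls are particular to the members therefore cannot be told. Gsdmd then averaged 8.95 ± 2.0 FPKM in SZ-A (SD, n = 6), against 13.3 ± 11.7 with all 7 mice. This mouse also had the highest sum of macrophage markers of the SZ-A group (6264 FPKM, against 1640 to 4845) and 11.6% mitochondrial reads. Their part in its values was not tested.

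**Figure D2:**
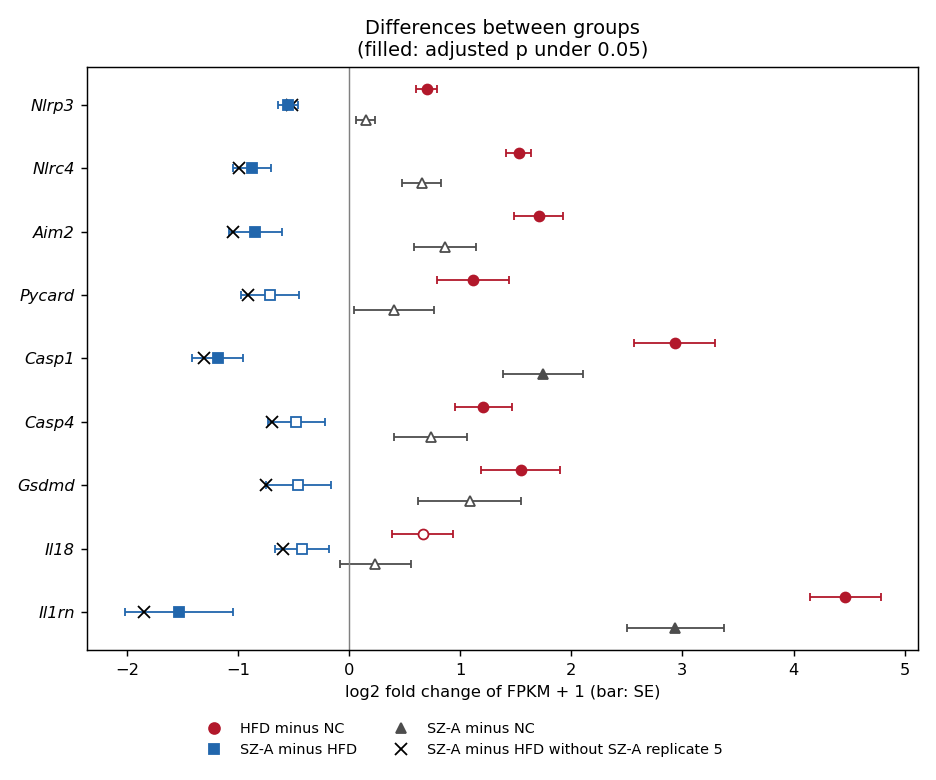
Log2 fold change of FPKM + 1 with its SE for 9 genes in 3 comparisons (limma, filled symbols, adjusted p under 0.05), with crosses for SZ-A minus HFD without SZ-A replicate 5. HFD minus NC is above 0 for all 9 genes and reaches 4.47 for Il1rn, SZ-A minus HFD is below 0 for all 9, and the crosses move farthest for Il1rn (to -1.85) and Gsdmd (from -0.46 to -0.75).

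SZ-A against NC asks how far the genes of treated mice were from those of lean mice. No gavage is stated for NC, so diet, alkaloids and gavage cannot be told apart here. Each of the 9 had a higher mean in SZ-A. Casp1 and Il1rn rose at an adjusted p under 0.05, a call made upward for 4.15% of 14718 genes, and both passed the fold limit, as did 1.73% of all genes. The same pair had no overlap between the groups, which held for 3.22% of all genes. The median log2 fold change of the 9 was 0.73 (0.00 over all genes). Il1rn was higher by 2.93 ± 0.44 (SE, limma adjusted p = 0.0020), with a mean 78.2 times that of NC. Casp1 was higher by 1.75 ± 0.36 (SE, limma adjusted p = 0.013).

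The sensors were between the groups. Nlrc4 had a log2 difference of 0.65 ± 0.18 from NC (SE, limma adjusted p = 0.051) and Aim2 one of 0.86 ± 0.28 (SE, limma adjusted p = 0.098), and neither passed. Both passed where the 3 groups shared a fit (0.014 and 0.036). Nlrp3 differed from NC by 0.15 ± 0.09 (SE, limma adjusted p = 0.38). Gsdmd, Casp4, Pycard and Il18 had log2 differences of 1.09, 0.73, 0.40 and 0.24, with adjusted p from 0.22 to 0.73. A p above the threshold does not show that these genes were at the NC level.

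The order of the levels, which FPKM allows because it is per length, changed between groups. In NC, Gsdmd was the highest (5.72 ± 3.76 FPKM, SD, n = 6), followed by Casp1 (3.84), Pycard (2.77), Il18 (2.55), Casp4 (1.61), Aim2 (0.737), Nlrc4 (0.430), Nlrp3 (0.220) and Il1rn (0.136). The ranges of all neighbours in this order overlapped, though Il1rn was below Nlrp3 in 6 of 6 mice. In HFD, Casp1 was the highest (32.6 ± 12.1 FPKM, n = 7) and Il1rn, the lowest in NC, was next (27.7 ± 15.8), followed by Gsdmd (15.7), Pycard (6.46), Casp4 (4.72), Aim2 (4.55), Il18 (4.33), Nlrc4 (3.13) and Nlrp3 (0.981). Gsdmd was above Pycard and Nlrc4 above Nlrp3 in all 7 HFD mice without overlap. Pycard, Casp4, Aim2 and Il18 overlapped one another. In SZ-A, Casp1 (13.7 ± 5.01 FPKM), Gsdmd (13.3 ± 11.7) and Il1rn (10.6 ± 10.3) led, and of all neighbours only Nlrc4 and Nlrp3 were apart.

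Relative to macrophage markers the 9 genes fell into different patterns. For each mouse, the log2 FPKM of a gene was set against the mean log2 FPKM of the 20 markers, as a description with no test. Il1rn was at -5.67 ± 0.75 in NC, -1.21 ± 0.60 in HFD and -1.70 ± 0.87 with SZ-A (log2 ratio, SD), so that it was higher in both diet-fed groups. Casp1 was nearly level, at -0.93 ± 0.51, -0.83 ± 0.21 and -0.87 ± 0.11. Il18 went the other way, from -1.34 ± 0.45 in NC to -3.74 ± 0.27 in HFD and -3.12 ± 0.57 with SZ-A. Gsdmd (-0.32, -1.84 and -1.13) and Casp4 (-2.10, -3.60 and -3.03) had the same order of the groups. Pycard was at -1.34 ± 2.12, -3.18 ± 0.24 and -2.87 ± 0.40, where the wide NC spread comes from replicates 1 and 6 being high in Pycard and low in the markers. Nlrc4 (-3.74, -4.16 and -4.34), Aim2 (-3.28, -3.66 and -3.63) and Nlrp3 (-4.83, -5.85 and -6.17) had differences between HFD and NC of -0.43, -0.38 and -1.02.

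The choice of marker moved these ratios. Against Adgre1 alone, the difference between HFD and NC was -2.14 for Casp1 in place of 0.09, and it was below 0 for each member other than Il1rn, which stayed higher by 2.23 in HFD. SZ-A minus HFD against Adgre1 was above 0 for all 9 genes (from 0.18 for Il1rn to 1.37 for Gsdmd), while against the whole list it was below 0 for Nlrp3, Casp1, Il1rn and Nlrc4. Changing the reference moves all 9 genes by the same amount, -2.23 for HFD minus NC and 0.67 for SZ-A minus HFD. The sign of a group difference in the ratio therefore changed with the reference for Casp1 in HFD minus NC. In SZ-A minus HFD it changed for Nlrp3, Casp1, Il1rn and Nlrc4. The other members kept their sign in these comparisons, and the distances between the genes do not depend on the reference.

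**Figure D3:**
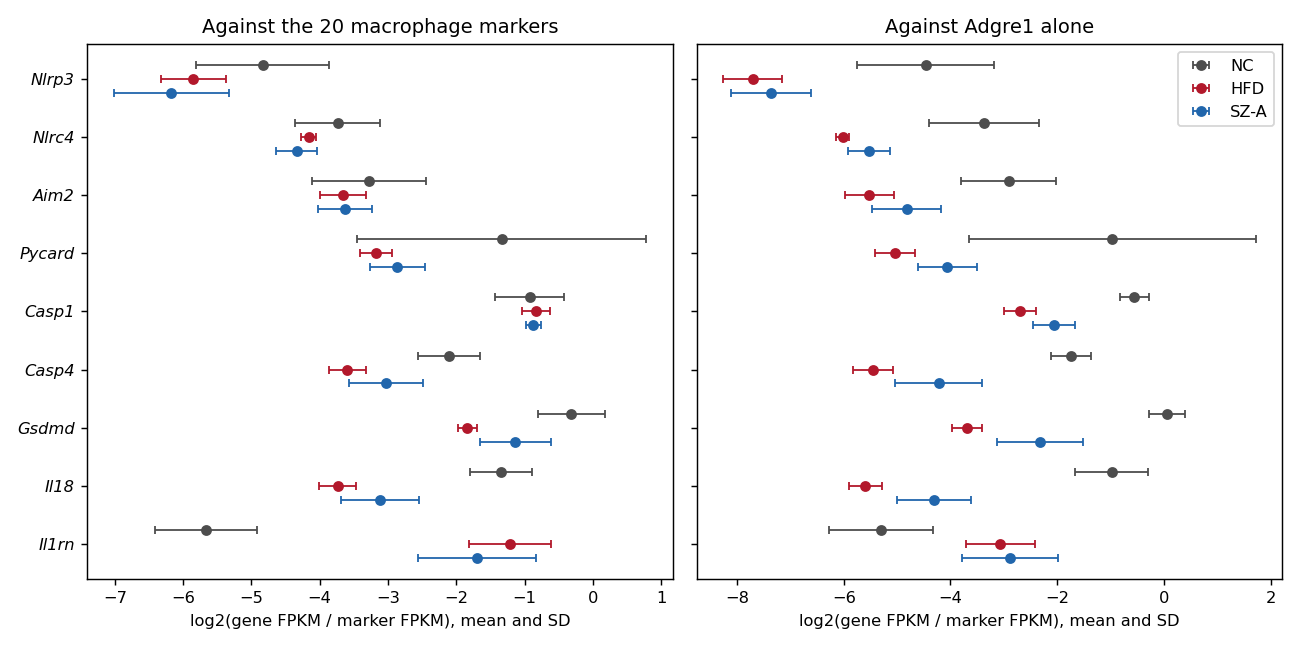
Log2 ratio of each gene's FPKM to the macrophage marker level in the same mouse (mean and SD of 6 NC, 7 HFD and 7 SZ-A mice), against all 20 markers and against Adgre1 alone. Il1rn lies farther right in HFD and SZ-A than in NC in both panels, Il18, Gsdmd and Casp4 lie farther left, and Casp1 is level in the panel of 20 markers but not against Adgre1, because all 9 genes are shifted alike between the panels.

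Mice of the same group also differed together. With each group's mean subtracted, Casp1 followed the macrophage list over the 20 mice with a Pearson r of 0.95 (Spearman rho 0.87, r 0.94 without the 2 mice farthest out on the marker axis). The values for Gsdmd were 0.88 (0.83), for Casp4 0.79 (0.73) and for Il18 0.79 (0.75). Nlrc4 was at 0.70 (0.93), Aim2 at 0.67 (0.68) and Il1rn at 0.54 (0.79). Over all 20 mice together, Nlrp3 (0.22, rho 0.11) and Pycard (-0.17, rho 0.17) did not follow the markers. For Pycard the groups differed. In HFD it was highest in replicate 1 and lowest in replicate 6, as was the marker mean. In SZ-A both were highest in replicate 5 and lowest in replicate 4. In NC, Pycard was highest in replicate 6, which had the lowest marker mean, and lowest in replicate 3, which had the highest. These are descriptions over mice that share library composition and depth. Among the members, Casp4 and Gsdmd had an r of 0.92 (rho 0.87, r 0.84 without the 2 mice farthest out) and Il1rn and Nlrc4 one of 0.90 (0.86 and 0.85).

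Over all genes tested, the 3 genes most like each member were named by the same within-group r. For Casp1 they were Lyz2 (0.969), the lysozyme of macrophages, Serpinb6a and Plek. Il1rn was most like Kcnn4 (0.957), a calcium-activated potassium channel, Ptpn7 and Hpgds. Nlrc4 was most like Arl11 (0.960), Fcgr4, an Fc receptor of myeloid cells, and Ahnak2. Aim2 was most like Tlr1 (0.921), Jpt1 and A630001G21Rik. The genes nearest to Gsdmd were Abca7 (0.955), Arhgap45 and Abcc5, and those nearest to Casp4 were Gsdmd itself, Hilpda (0.911) and Hcst. Il18 was nearest to Tnfrsf13b (0.952), Cd53 and Sms. Pycard stood with Tmsb4x (0.964), Tgif1 and Arf5. Nlrp3 had no gene above 0.770, its nearest being Sesn1, Sobp and Spon2.

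Other genes of the pathway were taken from lists that were chosen, like the members, with earlier results of these data known. Counts in these lists stand beside shares of all genes that were called, 21.0% higher and 20.1% lower in HFD against NC, 9.47% higher and 13.3% lower in SZ-A against HFD, and 4.15% higher in SZ-A against NC. Genes are counted by limma with all mice unless another fit is named. Of 7 further inflammasome sensors tested, 5 rose and 1 fell in HFD against NC, 3 fell in SZ-A against HFD, and 2 rose in SZ-A against NC (medians of log2 fold change 0.92, -0.58 and 0.44). Without SZ-A replicate 5, Naip5 and Nlrp1b were also called lower in SZ-A against HFD. The call of Naip6 in SZ-A against NC was lost without NC replicate 6, and held in 6 of 13 fits without 1 mouse. By voom, Mefv was called higher in HFD against NC, and in SZ-A against HFD Naip5 was called lower and Naip1 higher. Naip2, which binds the bacterial proteins that NLRC4 responds to, rose from 0.905 ± 0.646 FPKM in NC (SD, n = 6) to 9.98 ± 2.12 in HFD (n = 7) and was at 3.59 ± 1.21 with SZ-A (n = 7). Its log2 fold changes were 2.58, -1.27 and 1.31 (limma adjusted p = 8.4e-07, 3.2e-04 and 0.0048), and none of these groups overlapped. Naip5 (1.51), Naip6 (1.31), Nlrp10 (0.92) and Nlrp1b (0.63) rose in HFD as well. Naip1 went down, from 1.52 ± 1.49 to 0.0862 ± 0.0596 FPKM (log2 fold change -1.01, limma adjusted p = 0.014). Naip genes are close paralogs, and reads may be split between them in ways the counting decides. Mefv did not pass in any comparison by limma, and Nlrp1a, Nlrp6 and Nlrp12 were not analysed here.

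Of 2 further genes of the adaptor and caspase list, Casp8, a caspase of cell death, rose by 0.37 in HFD (limma adjusted p = 0.04995), a call lost by voom and in 10 of 13 fits without 1 mouse, that without NC replicate 6 among them, and Nek7, a partner of NLRP3, did not pass in any comparison. Ninj1, which ruptures the plasma membrane of dying cells, was at 33.1 ± 11.2 FPKM in NC, 128 ± 65.3 in HFD and 71.1 ± 25.4 with SZ-A (SD, n = 6, 7 and 7). It rose by 1.87 in HFD (limma adjusted p = 5.1e-04) and was 1.10 higher in SZ-A than in NC (0.044), while its difference of -0.77 between SZ-A and HFD did not pass (0.062). Without SZ-A replicate 5, the fall against HFD passed and the rise over NC did not, and the latter call held in 3 of 13 fits without 1 mouse. Gsdme passed in none of the comparisons. Of the other cytokines and their inhibitors, Il33, a cytokine of stromal cells, fell by 0.99 in SZ-A against HFD (limma adjusted p = 0.034), a call that held in 6 of 14 fits without 1 mouse and not in that without SZ-A replicate 5 (0.052). Il18bp, which binds IL-18, did not pass in any comparison.

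The receptors showed both directions. Of 8 genes, 5 rose and 1 fell in HFD against NC, and 4 fell and 1 rose in SZ-A against HFD (medians 0.34 and -0.30), while in SZ-A against NC 0 passed by limma or by voom and 1 had an unadjusted p under 0.05. Il1rl1, the receptor of IL-33, went from 0.513 ± 0.402 FPKM in NC to 4.33 ± 1.95 in HFD and 1.20 ± 0.256 with SZ-A, with log2 fold changes of 1.78 in HFD and -1.20 with SZ-A against HFD (limma adjusted p = 7.3e-05 and 0.0011), and HFD overlapped neither group. Il1r1, the signalling receptor of IL-1, rose by 0.67 and fell by 0.44. Il1rap, its shared partner chain, rose by 0.41 and fell by 0.44, and Il1rl2, the receptor of IL-36, rose by 0.56 and fell by 0.53. The decoy receptor Il1r2 rose by 0.28 in HFD. Sigirr, an inhibitory receptor of the family, ran opposite. It was at 4.52 ± 0.856 FPKM in NC, 1.86 ± 0.543 in HFD and 4.04 ± 0.751 with SZ-A, with all HFD mice below all others. Its log2 fold changes were -0.96 in HFD (limma adjusted p = 1.8e-04) and 0.83 in SZ-A against HFD (0.0011). The IL-18 receptor chains Il18r1 and Il18rap passed in no comparison.

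**Figure D4:**
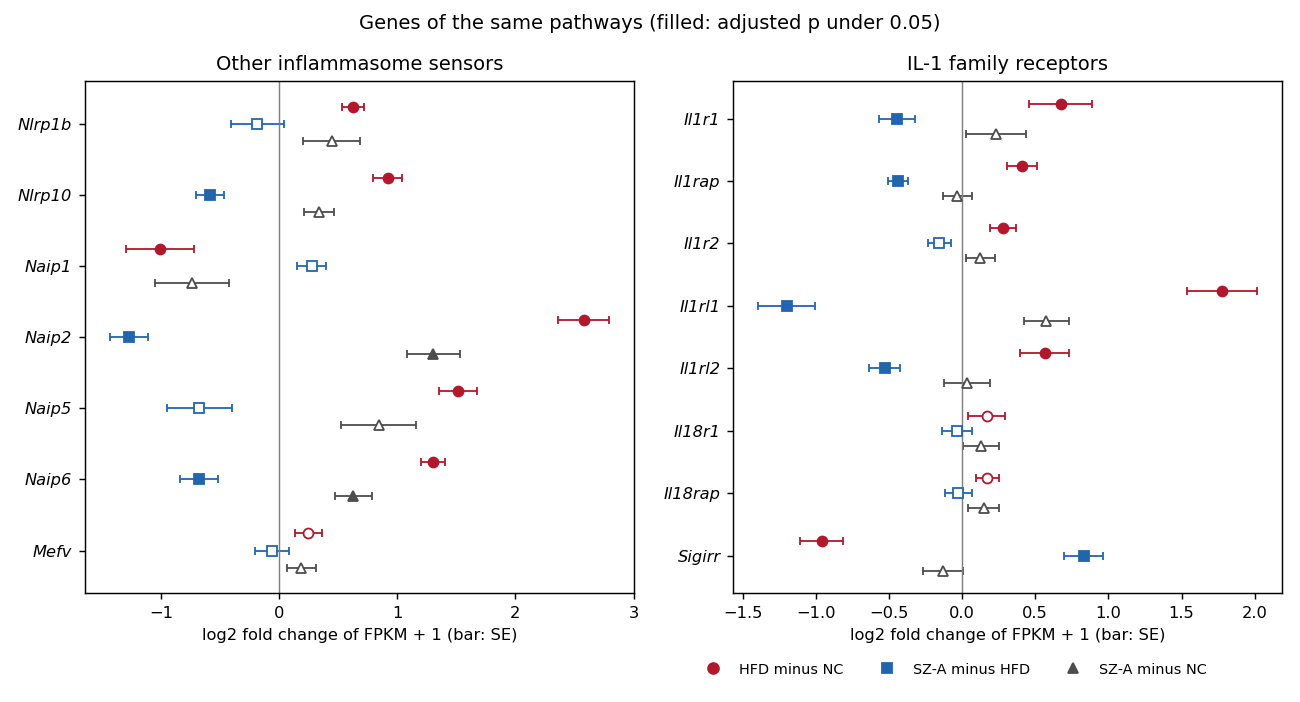
Log2 fold change of FPKM + 1 with its SE (limma, filled symbols, adjusted p under 0.05) for 7 other inflammasome sensors and 8 IL-1 family receptors in 3 comparisons. Naip2 reaches 2.58 in HFD minus NC, while Naip1 (-1.01) and Sigirr (-0.96) lie on the other side of 0, and Sigirr is at 0.83 in SZ-A minus HFD.

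Signalling genes downstream of the receptors came next in the lists. Of 13 tested, 2 rose in HFD against NC: Nfkb1, a subunit of NF-kB (0.90), and Irak3, an inhibitor of the pathway (1.24), a share below that of all genes. In SZ-A against HFD, 4 fell (Nfkb1 by 0.58, Irak4 by 0.58, Irak3 by 0.42 and Tab2 by 0.38) and Irak2 rose by 0.68, while in SZ-A against NC 0 passed by limma or by voom and 3 had an unadjusted p under 0.05 in limma. The call of Tab2 was lost by voom and without SZ-A replicate 5 and held in 2 of 14 fits without 1 mouse, and that of Irak2 held in 9 of 14. Without SZ-A replicate 5, Myd88 and Tollip were called lower as well. The medians of the 13 were 0.21, -0.15 and -0.03 in the 3 comparisons.

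The last list holds upstream genes and regulators of the inflammasome. Of 15, 5 rose in HFD: Ctsb, the lysosomal protease cathepsin B (3.05), the ATP-gated channels P2rx4 (2.36) and P2rx7 (2.10), the channel Panx1 (1.62) and the protease inhibitor Serpinb1a (1.54). Without NC replicate 6, Pstpip1 was also called higher and Txnip lower, and by voom Brcc3 was called lower. P2rx7 averaged 2.40 ± 0.931 FPKM in NC, 13.2 ± 1.65 in HFD and 6.46 ± 3.12 with SZ-A. Against HFD, Ctsb, P2rx7, Serpinb1a, P2rx4 and Irgm1 fell in SZ-A (by 1.06, 1.01, 0.95, 0.92 and 0.34), and Ctsb, P2rx4, P2rx7 and Panx1 were higher than in NC. The call of Irgm1 was lost by voom and held in 6 of 14 fits without 1 mouse, and that of P2rx7 in SZ-A against NC held in 9 of 13. The medians of the 15 were 0.65, -0.23 and 0.57 in the 3 comparisons. Txnip, a stress protein that binds NLRP3, did not pass in any comparison with all mice (log2 differences -0.15, 0.30 and 0.15).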

How the data were processed

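Poly(A) RNA from eWAT was sequenced as paired-end reads. The authors aligned them to GRCm38 with HISAT2, the processing notes name featureCounts 1.5.0-p3, and the deposited values are FPKM for 14776 genes, 1 column per mouse. The annotation release and gene filter are not given in the sources used here. Reads were recovered as FPKM times GENCODE M21 exon length (95.9% to 96.3% of values under 1000 reads were whole within 0.01 reads in each mouse). The Nlrc4 values did not give whole reads, so its reads are not printed.

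Groups were compared in pairs on log2(FPKM + 1) with limma (version 3.58.1, R 4.3.3) and eBayes with a trend, keeping a gene if it averaged 0.1 FPKM or more. P-values were adjusted over the whole tested table by Benjamini-Hochberg. DESeq2, named in the study's methods, was not used, since the deposited values are FPKM. Reads recovered from them were fitted by voom as an alternative. Steps were tested on simulated data. Tables were made with Python 3.11.15, pandas 2.3.3 and SciPy 1.17.1. The members, pathway lists and marker lists were chosen with earlier results of these data known. Genes named are the 10 members, members of the lists, and for each member the 3 genes with the highest within-group correlation. Alternatives were pseudocount 0.1, no filter, a filter at an average of 1 FPKM, median-ratio scaling, a 3-group fit, voom, a replicate block and leaving out each mouse. Labels give 6 NC mice where the study's text gives 7.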

Additional observations from a re-analysis of the deposited data

Results flagged for a closer look

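In SZ-A replicate 5, Casp4 was at 9.17 FPKM and Gsdmd at 39.6 FPKM, each farther from the other 6 SZ-A mice than Dixon's 95% critical value for 7 samples allows. Of 27 sets (9 genes in 3 groups), these 2 were the ones past that value. The criterion passes about 1 group in 20 by chance. Both values came from a library with 11.6% mitochondrial reads and the highest macrophage marker sum of its group, and the part of either was not tested.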

How the results depend on the processing

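Leaving out 1 mouse at a time kept the direction of all 9 members in each comparison. The number called in HFD against NC ranged from 8 to 9, and with the fold limit from 3 (without NC replicate 1, NC replicate 6 or HFD replicate 1) to 5. In SZ-A against HFD it ranged from 4 to 9 (9 without SZ-A replicate 5, where the share of all genes is not given here), and from 0 to 1 with the fold limit. In SZ-A against NC it ranged from 2 to 3, and from 1 to 2 with the fold limit, with Casp1 at 1.43 without NC replicate 6.

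With all 3 groups in the fit, 4 members were called in SZ-A against NC. With SZ-A replicate 5 and NC replicate 6 left out together, an alternative chosen after seeing the data, 1 member passed the fold limit and Il18 was at -0.14 (adjusted p = 0.81) in place of 0.24. Pycard passed in SZ-A against HFD by voom (0.047). Nlrp3 is left out by the filter at a mean of 1 FPKM. With the replicate number as a block (replicate block), 1 member was called in SZ-A against NC with or without the fold limit, since Casp1 was at an adjusted p of 0.079, and it changed no other call of a member. Same-numbered mice of 2 groups correlated at -0.41 to 0.58 in their deviations, and not every mouse correlated best with its own number. Whether the numbers mark a shared batch or a pairing cannot be told from this, and the main fits used no block.

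Over all genes, calls with the fold limit in HFD against NC were 1172, and 2036 with a pseudocount of 0.1 or 2273 by voom. Of the members, 7 passed it in either of these fits, in place of 5. In SZ-A against HFD they were 127, and 337 and 450, with 80 without HFD replicate 1 and 192 without SZ-A replicate 6. Calls by adjusted p there were 3349, and 2089 in the 3-group fit. In SZ-A against NC they were 678, against 1527 in the 3-group fit, 167 with the block, and 441, 423 and 425 without NC replicate 1, NC replicate 2 or SZ-A replicate 6, and with the fold limit 263 against 116 with the block. The cause of these differences was not tested. Calls of single pathway genes without 1 mouse and by voom were counted after seeing the data. Low genes limit precision, as for Il1rn and Nlrp3 in NC.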
